A study of Mus musculus with 20 samples.

Results

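The genes of potassium channels and of HCN channels, which pass both sodium and potassium and open on hyperpolarization, were followed across the neocortex and hippocampus of mice that lack the APP family in forebrain excitatory neurons. Members were taken by symbol, as every row that begins with Kcn or is one of the Hcn genes, and were kept where the row had more than 1 CPM (a count scaled to the total of its library) in at least 5 of the 20 libraries. Of 24421 rows, 102 matched by symbol and 83 of them were members. 80 members encode channel subunits, and 3 are RNAs without a channel product (Kcnq1ot1, Kcnd3os and Kcnmb4os2). Of the members, 74 were above 1 CPM in all 20 libraries. Just inside the limit lay Kcne2, which passed it in 6 libraries, all hippocampal, and Kcne4, which passed it in 7. Just outside lay Kcnj5, which passed it in 4 libraries, and Kcnq1, which passed it in 3.

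The cTKO mice carried floxed alleles of App, Aplp1 and Aplp2 and a Camk2a-Cre transgene, which removes the 3 genes after birth from excitatory neurons of the forebrain only. Their littermate controls, labelled wild type, carried the same floxed alleles without Cre. All mice were 3 months old, of both sexes and of a hybrid C57BL/6J and 129 background, and the neocortex and hippocampus were taken from 5 mice of each genotype, which gave 5 libraries in each of 4 groups. RNA came from whole tissue, so that fewer cells of a type and less RNA per cell cannot be told apart.

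Potassium channels set the resting potential of a neuron, repolarize it after each action potential and limit how often it fires, and HCN channels carry an inward current that opposes hyperpolarization. A channel is built from pore subunits of one or several related genes, to which auxiliary subunits add control of gating, assembly and transport. Neocortical and hippocampal pyramidal neurons are known to differ in their complement of these genes, and glia, vessels and the choroid plexus use others.

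The part of a pore subunit that selects potassium is a short loop that ends in glycine, tyrosine or phenylalanine, and glycine. A search of the GENCODE M21 coding sequences (GRCm38) for serine, threonine or cysteine, then valine, isoleucine, alanine, threonine, leucine, methionine or cysteine, and then this triplet found a match in 67 of 80 coding members. The 13 without one were the members of Kcnab, Kcne, Kcnip and Kcnmb, which are auxiliary and form no pore. The coding bases around the loop are shown for pore subunits whose levels are described in most detail, so that the loops of these families can be set side by side. The codons of the triplet are in capitals.
Hcn3: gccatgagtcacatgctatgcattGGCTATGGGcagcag
Hcn4: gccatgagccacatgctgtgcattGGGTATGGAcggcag
Kcna5: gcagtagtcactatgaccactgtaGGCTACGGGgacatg
Kcnf1: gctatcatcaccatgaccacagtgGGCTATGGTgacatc
Kcnh5: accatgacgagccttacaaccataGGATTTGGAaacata
Kcnh7: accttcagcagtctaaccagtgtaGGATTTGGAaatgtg
Kcnt1: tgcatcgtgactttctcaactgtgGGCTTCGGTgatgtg

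The windows of Hcn3 and Hcn4 lie in exon 4 of 8, at chr3:89151000-89151038 (minus strand) and chr9:58855567-58855605 (plus strand). The others are exonic at chr6:126533739-126533777 (minus strand), chr12:17175055-17175093 (minus strand), chr12:75087460-75087498 (minus strand), chr2:62777337-62777375 (minus strand) and chr2:25894349-25894387 (plus strand). Tyrosine stands in the middle of the triplet in the windows of Hcn3, Hcn4, Kcna5 and Kcnf1, and phenylalanine in those of Kcnh5, Kcnh7 and Kcnt1.

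Total counts ranged from 12169474 to 25331954 per library, in which 3 counts make 0.118 to 0.247 CPM, a limit that covers counting error only. The summed level of the targeted App, Aplp1 and Aplp2 was 834 to 1097 CPM in cTKO libraries against 3151 to 3711 CPM in controls, and all 3 were called lower in both regions. Markers of neocortical excitatory neurons summed to 585 to 844 CPM in neocortical and 168 to 243 CPM in hippocampal libraries, and those of hippocampal excitatory neurons to 29.1 to 41.0 and 380 to 480 CPM, so that each region had the higher sum of its own markers. Of the 6 neocortical markers, 5 were called lower in control hippocampus and Fezf2 higher. 3 libraries stood apart. Choroid plexus markers summed to 2687 CPM in control hippocampus 3, against 76.0 to 594 CPM in the other hippocampal libraries. A list of embryonic globin and Hox genes summed to 189 CPM in cTKO hippocampus 4 and to 291 CPM in cTKO neocortex 5, against at most 1.32 CPM elsewhere. The Hox genes of the list had 0 CPM in both libraries, so that these sums were wholly globin RNA (Hba-x, Hbb-bh1 and Hbb-y). The summed astrocyte markers were highest in cTKO hippocampus 4, at 4802 CPM, of which Gfap made 3108 CPM. Aqp4 and Aldh1l1 were also highest there among hippocampal libraries, but Slc1a3 was the second lowest, at 787 CPM.

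Potassium and HCN channel genes took a larger share of neocortical than of hippocampal RNA. The summed level of the members lay between 6961 and 7384 CPM in neocortical and between 5682 and 6295 CPM in hippocampal libraries of controls, and the regions did not overlap. In cTKO mice the sum was 6249 to 7121 CPM in the neocortex and 5630 to 6190 CPM in the hippocampus, again without overlap between the regions. The genotypes overlapped within each region. Per kb of exon, high mean levels over the 20 libraries were those of Kcnab2, a cytoplasmic subunit of Shaker-type channels, at 110.7 CPM per kb, and of Kcna1, a Shaker-type pore subunit of axons, at 63.2 CPM per kb. Kcnj10, the main inward rectifier of astrocytes, had 56.3 CPM per kb, Kcnip3 44.4 and Hcn2 42.5 CPM per kb.

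Levels below are TMM-scaled CPM. Log2 differences and false discovery rates (FDR) come from edgeR's quasi-likelihood fit across all genes of the libraries of both groups. A gene was called at an FDR under 0.05. The standard error after ± was derived from the test, as the size of the log2 difference over the square root of its F statistic.

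Hcn2, Hcn3 and Hcn4 were called lower in control hippocampus than in control neocortex, and Hcn3 and Hcn4 also in cTKO mice, where 29.2% and 21.1% of all genes tested were called lower. Hcn2, a widely expressed HCN subunit of slow opening, had 145 ± 6.73 CPM in the neocortex and 129.5 ± 12.5 CPM in the hippocampus of controls (SD, n = 5), with a log2 difference (hippocampus minus neocortex) of −0.17 ± 0.0628 (FDR 0.0275). This call was lost in the one fit of all 20 libraries (FDR 0.248), without the filter on low counts (FDR 0.0532) and without control hippocampus 1, 3 or 5 or control neocortex 2 (FDR 0.0524 to 0.0749). Hcn3 was lower in the hippocampus by 0.57 log2 units, with 18.3 ± 1.21 CPM in the neocortex and 12.4 ± 1.18 CPM in the hippocampus of controls (SD, n = 5; FDR 3.93e-05). Part of its exons overlaps those of Pklr on the other strand, and whether counting used strand is not given in the sources used here.

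Hcn4, the slowest HCN subunit and the pacemaker form of heart and thalamus, had the steepest regional difference of the 3. Its levels in control neocortex were 6.15, 5.85, 4.61, 5.08 and 5.56 CPM in libraries 1 to 5, and in control hippocampus 1.41, 1.89, 0.681, 1.14 and 2.04 CPM. Every neocortical library was above every hippocampal one, at a log2 difference of −1.94 ± 0.224 (FDR 2.81e-06). In cTKO mice the levels were 9.57, 7.54, 6.98, 7.05 and 5.26 CPM in the neocortex and 2.67, 1.53, 1.77, 2.15 and 2.41 CPM in the hippocampus, with a log2 difference of −1.80 ± 0.201 (FDR 2e-05). Per kb, Hcn2, Hcn3 and Hcn4 stood in control neocortex at 45.5 ± 2.11, 4.40 ± 0.290 and 0.891 ± 0.100 CPM per kb (SD, n = 5), and differed by more than their SDs.

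None of these HCN genes was called by genotype (neocortex 0.188% and hippocampus 0.489% of all genes tested). Their lowest unadjusted p-values were in the neocortex, for Hcn3 and Hcn4. For Hcn3, cTKO neocortex had 26.5, 23.2, 21, 25.8 and 17.1 CPM and controls 16.2, 18.8, 18.9, 19.2 and 18.3 CPM, so that 4 of 5 cTKO libraries exceeded every control and cTKO library 5 lay within the range of the controls. The log2 difference (cTKO minus control) was 0.33 ± 0.108 (FDR 0.301), and that of Hcn4 in the neocortex was 0.42 ± 0.152 (FDR 0.333). Hcn2 stood near 0, at −0.01 ± 0.117 (neocortex) and −0.05 ± 0.0967 (hippocampus).

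**Figure D1:**
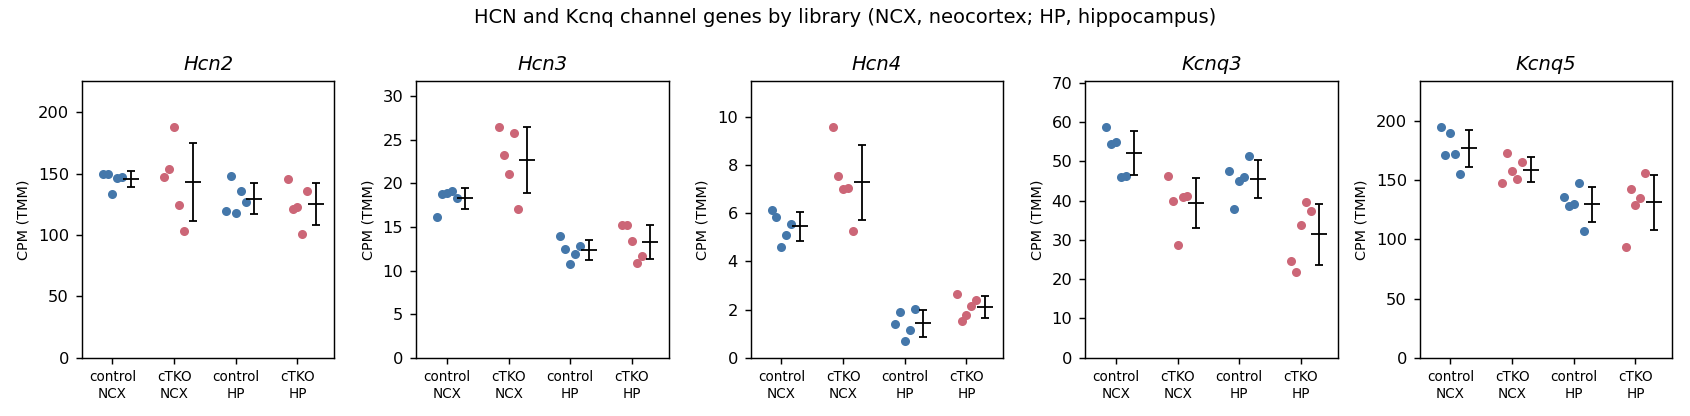
CPM (TMM-scaled, linear axis from 0) of Hcn2, Hcn3, Hcn4, Kcnq3 and Kcnq5 in each library, with controls in blue, cTKO in red and the mean ± SD of 5 libraries beside them in black. Hcn4 is higher in every neocortical than in every hippocampal library, and Kcnq3 means are 52.1 and 45.5 CPM in controls against 39.4 and 31.4 CPM in cTKO libraries.

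The Kcnq genes encode the subunits of the M-current, a slow potassium current that is open near the firing threshold and is shut by muscarinic receptors, and in forebrain neurons Kcnq3 and Kcnq5 are among its subunits. Kcnq1, the cardiac member, did not pass the level limit. Per kb, Kcnq5 was above Kcnq3 in control neocortex, at 23.0 ± 2.06 and 3.55 ± 0.385 CPM per kb (SD, n = 5), apart by more than their SDs. By region, both were called lower in control hippocampus, Kcnq3 by 0.20 and Kcnq5 by 0.45 log2 units, and neither was called in cTKO mice (−0.34 ± 0.169 and −0.29 ± 0.116). The call of Kcnq3 (FDR 0.0484) was lost without any 1 of control hippocampus 1 to 4 or control neocortex 1 to 3 (FDR 0.0523 to 0.130), without the filter on low counts (FDR 0.0786) and in the one fit of all 20 libraries (FDR 0.258).

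Kcnq3 was also compared by genotype. In the neocortex its levels were 58.7, 54.5, 55.1, 46.1 and 46.3 CPM in controls and 46.2, 40.0, 28.7, 40.9 and 41.2 CPM in cTKO libraries. The highest cTKO library lay between the 2 lowest controls, and the others were below all controls. The log2 difference was −0.40 ± 0.114, with an FDR of 0.209, and the exact two-sided permutation test gave p = 0.0159. In the hippocampus, controls had 47.5, 37.8, 45.1, 46.0 and 51.3 CPM and cTKO libraries 24.6, 21.9, 33.7, 39.7 and 37.3 CPM. Here 1 cTKO library exceeded the lowest control, at a log2 difference of −0.53 ± 0.152 (FDR 0.169), and the exact permutation test gave p = 0.0159. Kcnq5 differed by −0.15 ± 0.0703 (neocortex) and 0.02 ± 0.123 (hippocampus), without a call. Kcnq3 did not pass the FDR limit of 0.05 with the quasi-likelihood test in either region, but did in the hippocampus with edgeR's exact test (FDR 0.0449) and with DESeq2 (FDR 0.0363).

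Most members differed by region. The comparison asks which subunits the hippocampus uses more or less than the neocortex of the same genotype. In controls 16 of 82 members tested were higher in the hippocampus, against 29.8% of all genes tested, and 48 were lower, against 29.2%. In cTKO mice 13 of 79 were higher, against 20.2% of all genes, and 41 were lower, against 21.1%. The median log2 difference of the members was −0.38 in controls and −0.41 in cTKO mice, where that of all genes was 0.012 and −0.0028. Of 79 members tested in both genotypes, 52 were called in the same direction in both, 12 higher, against 19.1% of all genes tested in both, and 40 lower, against 19.6%, and 0 were called in opposite directions. Of the called members in controls, 20 were lower by more than 1 log2 unit, against 5.08% of all genes tested, and 3 higher, against 3.19%. The neocortical RNA was prepared with another kit than the hippocampal RNA, so that kit and region cannot be told apart.

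**Figure D2:**
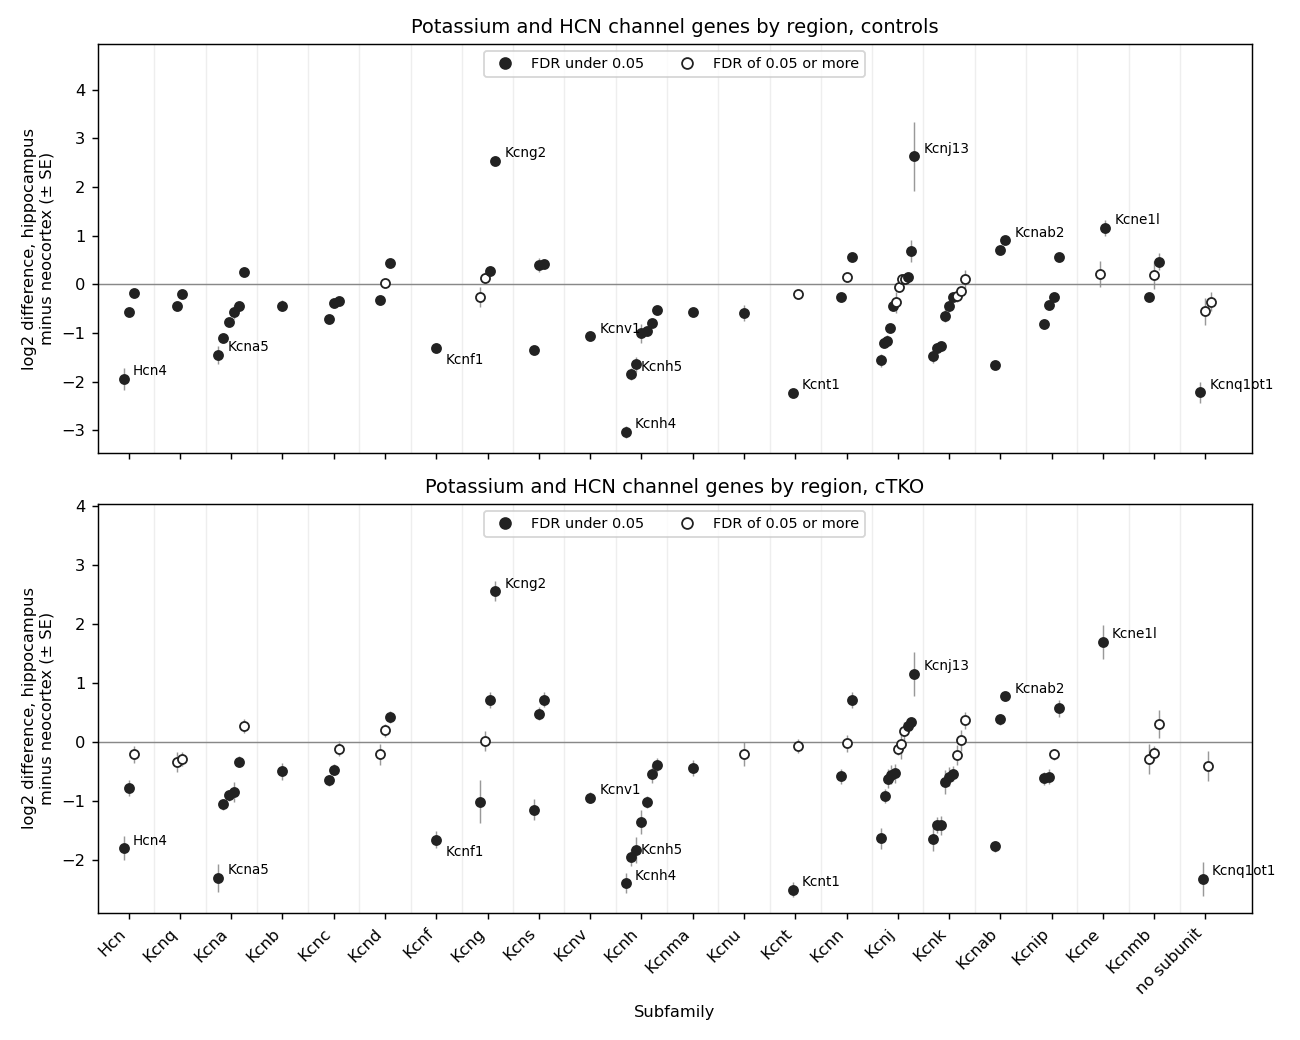
Log2 difference, hippocampus minus neocortex, of members tested (points, ± SE) by subfamily, in controls (upper) and cTKO mice (lower), with filled points for an FDR under 0.05. All 7 Kcnh members lie below 0 in both genotypes. Kcng2 and Kcnj13 have the largest positive differences of the members tested in controls, and Kcne2 was not tested by region.

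Among the voltage-gated pore subunits, all 7 Kcnh members were called lower in the hippocampus in both genotypes. Of all genes tested, 29.2% were called lower in controls and 21.1% in cTKO mice. The Kcnh members are the ether-a-go-go (Kcnh1, Kcnh5), erg (Kcnh2, Kcnh6, Kcnh7) and elk (Kcnh3, Kcnh4) channels, which are held to dampen firing. Kcnh4 had the largest difference of any member that was lower, with 25.5, 23.9, 24.9, 34.7 and 27.9 CPM in control neocortex and 3.37, 3.61, 3.13, 3.71 and 2.88 CPM in control hippocampus. The regions did not overlap, at a log2 difference of −3.03 ± 0.119 (FDR 2.17e-11), and in cTKO mice the difference was −2.40 ± 0.175 (FDR 6.21e-07). Kcnh5 followed at −1.85 ± 0.128 in controls and −1.96 ± 0.148 in cTKO mice, and Kcnh7 at −1.65 ± 0.150 and −1.84 ± 0.216. The smallest difference of the subfamily in controls was that of Kcnh2, −0.54 ± 0.0622. In controls, striatal markers summed to between 340.3 and 489.9 CPM in neocortical and between 84.7 and 111 CPM in hippocampal libraries, and their part in these values was not tested.

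Several of the subunits that are silent alone and join the delayed rectifiers of the Kcnb type were also lower in the hippocampus, but not all of them. The silent subunits Kcnf1, Kcnv1 and Kcns1 differed by −1.31, −1.07 and −1.35 log2 units. Kcng2, another silent subunit, went the other way. It had 5.04, 5.38, 3.87, 4.89 and 5.07 CPM in control neocortex and 26.3, 29.8, 26.1, 32.9 and 28.0 CPM in control hippocampus. No hippocampal library came near a neocortical one, and the log2 difference was 2.54 ± 0.0980 in controls (FDR 1.82e-11) and 2.55 ± 0.169 in cTKO mice (FDR 2.63e-07). Kcns2 and Kcns3 were higher in the hippocampus too, by 0.42 and 0.39 log2 units in controls.

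Of the Shaker-type pore subunits, 5 of 6 were called lower in the hippocampus in both genotypes (29.2% of all genes tested in controls, 21.1% in cTKO mice). The differences ran from −0.44 for Kcna1 to −1.46 for Kcna5 in controls, and Kcna4 alone was higher (0.26 log2 units, FDR 0.0251 in controls and 0.0804 in cTKO mice). Their cytoplasmic subunits were split. Kcnab1 and Kcnab2, which speed inactivation or carry the channel to the axon, were higher in the hippocampus by 0.71 and 0.90 log2 units in controls, and Kcnab3 was lower, at −1.66. Kcnab2 had 453 ± 17.4 CPM in the neocortex and 851 ± 92.4 CPM in the hippocampus of controls (SD, n = 5). The A-type channel of dendrites had subunits on both sides. Its pore subunit Kcnd2 and its calcium-binding subunit Kcnip2 were higher in the hippocampus by 0.43 and 0.56 log2 units, and Kcnip1, Kcnip3 and Kcnip4 were lower (−0.43, −0.82 and −0.26). Of the fast Kcnc pore subunits, which let interneurons fire at high rates, Kcnc1, Kcnc2 and Kcnc4 were lower in control hippocampus (−0.71, −0.39 and −0.34). In controls, interneuron markers summed to between 887 and 1023 CPM in neocortical and between 722 and 904 CPM in hippocampal libraries, and their part in these values was not tested.

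Among channels gated by ions, Kcnt1, the sodium-activated channel, had the second largest of the lower values in controls. It had 129.6, 128, 128, 148 and 145 CPM in control neocortex and 32.3, 28.9, 27.0, 27.8 and 28.7 CPM in control hippocampus. No libraries overlapped, and the log2 difference was −2.23 ± 0.0648 in controls and −2.50 ± 0.134 in cTKO mice. Its paralogue Kcnt2 was not called (−0.20 ± 0.101, FDR 0.0999). Kcnma1, the large-conductance calcium-activated channel, was lower in the hippocampus by 0.57 log2 units in controls. Of the small-conductance channels behind the afterhyperpolarization, Kcnn2 was higher (0.55 log2 units) and Kcnn3 lower (−0.27). Kcnu1, known from sperm, stood at 3.66 ± 0.825 CPM and 2.44 ± 0.207 CPM in the neocortex and hippocampus of controls (SD, n = 5; FDR 0.00670).

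The tandem-pore Kcnk genes, which carry leak currents, had 6 of 9 members called lower in the hippocampus and 0 higher in both genotypes. Of all genes tested, 29.2% were called lower and 29.8% higher in controls, and 21.1% and 20.2% in cTKO mice. The largest differences were those of Kcnk9, Kcnk4 and Kcnk3, at −1.49, −1.31 and −1.27 log2 units in controls. The inward rectifiers were mixed. Of 12 tested in controls, 5 were called lower, against 29.2% of all genes tested, and 3 higher, against 29.8%. Kcnj12, Kcnj9 and Kcnj2 led those that were lower (−1.56, −1.21 and −1.17). Kcnj3, which joins Kcnj9 in channels opened by G proteins, was higher by 0.15 log2 units. Kcnj10 and Kcnj16, which astrocytes use to take up potassium, did not pass the test by region (−0.05 ± 0.0568 and 0.10 ± 0.0753 in controls). The summed astrocyte markers of controls lay between 1125 and 1323 CPM in neocortical and between 1891 and 2394 CPM in hippocampal libraries. Of the 5 astrocyte markers, 4 were called higher in control hippocampus and 1 lower. The exception was Aldh1l1, whose hippocampal control libraries held at most 51.1 CPM and whose neocortical ones held at least 53.0 CPM. The part of astrocytes in the values of Kcnj10 and Kcnj16 was not tested. Kcnj8, which pericytes use, had 2.68 ± 0.561 CPM and 2.09 ± 0.585 CPM in the neocortex and hippocampus of controls, and Kcnk13, which microglia use, 6.67 ± 0.728 CPM and 5.68 ± 1.08 CPM (SD, n = 5), and neither was called by region. Kcnn4, also of microglia, did not pass the level limit.

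Kcnq1ot1, the long antisense RNA of the imprinted Kcnq1 locus, had 35.6 ± 2.83 CPM in control neocortex and 7.67 ± 3.57 CPM in control hippocampus (SD, n = 5), a log2 difference of −2.22 ± 0.222 in controls and −2.33 ± 0.284 in cTKO mice. It shares exon bases with Kcnq1 on the other strand, as 29 of 83 members share them with some other gene. Among the 29 are Kcng2 and Kcnj9, which overlap gene models on the other strand, and Kcnab2, which overlaps one on its own strand. Kcne1l, a single-span auxiliary subunit, was higher in the hippocampus by 1.16 log2 units in controls and 1.69 in cTKO mice.

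Kcnj13 and Kcne2, which the choroid plexus epithelium uses at its apical membrane, varied more within control hippocampus than any other member, by SD over mean. In control hippocampus Kcnj13 had 6.08, 4.72, 25, 3.19 and 0.575 CPM and Kcne2 2.41, 2.83, 22.7, 1.52 and 0.209 CPM, with both highest in library 3 and lowest in library 5. In cTKO hippocampus the levels were 0.943, 1.84, 3.26, 2.49 and 4.96 CPM for Kcnj13 and 0.451, 0.263, 0.536, 1.05 and 5.29 CPM for Kcne2, with both highest in library 5. The 5 choroid plexus markers, of which neither gene is one, summed to 402, 489, 2687, 268 and 76.0 CPM in the control and 112, 145, 141, 187 and 594 CPM in the cTKO libraries, so that the libraries highest in both genes were highest in the markers. Their part in the values of both genes was not tested. Exons of Kcnj13 overlap those of Gigyf2 on the other strand. Kcne2 was at or under 0.205 CPM in every neocortical library, and passed 1 CPM in too few libraries of either genotype to be tested by region. By region, Kcnj13 was higher in control hippocampus by 2.63 ± 0.706 log2 units (FDR 0.00481), and by 1.51 without control hippocampus 3 (FDR 0.0120). In cTKO mice the difference was 1.15 ± 0.370 (FDR 0.0248), and was no longer called without cTKO hippocampus 5 (0.81, FDR 0.0689), without cTKO neocortex 2 (FDR 0.0586) or 4 (FDR 0.0559), or in the one fit of all 20 libraries (FDR 0.133). By genotype in the hippocampus it was −1.56 ± 0.715 (FDR 0.413), and −0.44 without control hippocampus 3 (FDR 0.875). Kcne2 differed by −1.97 ± 1.01 (FDR 0.472).

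**Figure D3:**
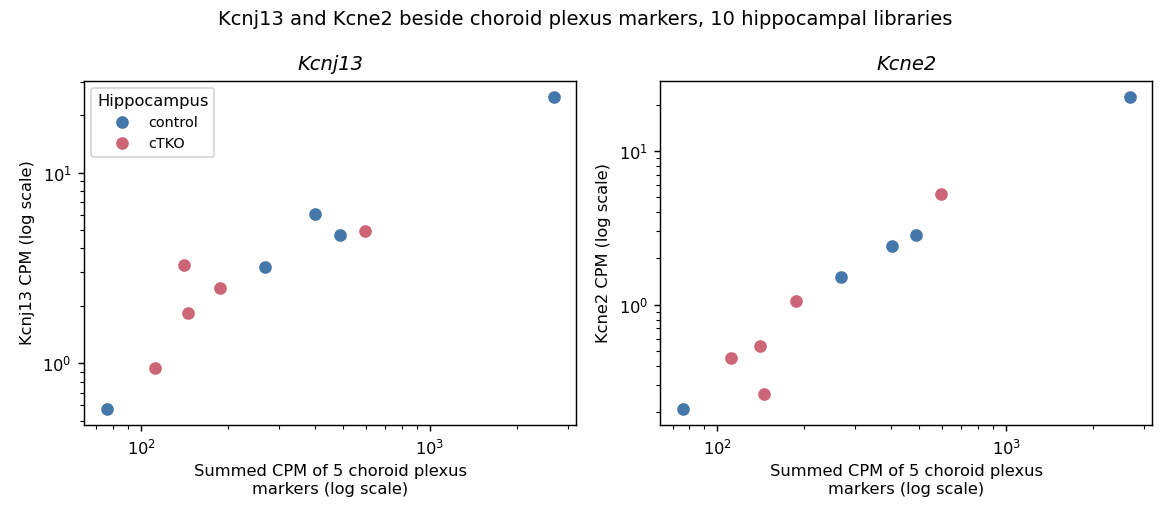
CPM of Kcnj13 (left) and Kcne2 (right) against the summed CPM of 5 choroid plexus markers, both on log scales, in the 10 hippocampal libraries (controls blue, cTKO red). Control hippocampus 3 lies apart at 25.0 CPM of Kcnj13 and 22.7 CPM of Kcne2, with a marker sum of 2687 CPM.

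By genotype, few members were called. The comparison asks what loss of the APP family from excitatory neurons did to these genes at 3 months. In the neocortex 0 of 80 members tested were called by edgeR's quasi-likelihood test (0.188% of all genes tested), 1 by edgeR's exact test (1.18% of all genes) and 2 by DESeq2 (1.60%). 22 members (27.5%) had an unadjusted p under 0.05. Of these 8 were higher in cTKO mice, against 5.57% of all genes, and 14 were lower, against 4.86%. Genotypes did not overlap for 1 member tested, against 2.36% of all genes. In the hippocampus 1 of 81 was called (0.489% of all genes), 5 by edgeR's exact test (1.88%) and 5 by DESeq2 (2.42%). 26 members (32.1%) had an unadjusted p under 0.05, of which 10 were higher, against 6.13% of all genes, and 16 lower, against 5.88%. The genotypes did not overlap for 6 of those tested (3.13% of all genes). The members' median log2 difference by genotype stood at −0.032 (neocortex) and −0.049 (hippocampus), beside 0.0090 and 0.0049 over all genes. With the sign left out, the median was 0.124 for members and 0.087 for all genes in the neocortex. In the hippocampus it was 0.1705 for members and 0.0908 for all genes. No member tested in the neocortex differed by more than 1 log2 unit, and 2 did in the hippocampus, Kcnj13 and Kcne2.

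Cell markers also differed by genotype in the same hippocampal libraries. Lamp5, 1 of 6 neocortical excitatory markers, was called lower in cTKO mice (−0.52 log2 units, FDR 0.0204), and Drd1, 1 of 6 striatal markers, was called higher (1.92 log2 units, FDR 3.31e-05). No other marker of the cell type lists was called there. Of the 6 hippocampal excitatory markers, 3 had an unadjusted p under 0.05, with Dsp and Fibcd1 at −0.83 and −0.54 and C1ql2 at 0.77 log2 units. So had 2 of 6 interneuron markers, Gad1 and Gad2 (0.19 and 0.30), and 1 of 5 astrocyte markers, Gfap (1.58). The median log2 difference was 0.080 for the interneuron list and 0.016 for the astrocyte list. An unadjusted p under 0.05 was also found for 3 of 5 choroid plexus markers, with a list median of −1.54. The same held for 2 of 6 striatal and 1 of 5 oligodendrocyte markers. The sums overlapped between genotypes, at 199 to 243 CPM in control and 168 to 219 CPM in cTKO hippocampus for the neocortical, 382 to 480 and 380 to 476.5 CPM for the hippocampal and 84.7 to 111 and 89.2 to 146 CPM for the striatal list. In the neocortex 0 markers of the cell type lists were called by genotype. An unadjusted p under 0.05 was found there for 2 of 6 interneuron and 2 of 6 striatal markers. It was also found for 1 of 6 neocortical, 1 of 4 hippocampal and 1 of 5 astrocyte markers tested. The part of the markers in the members' differences was not tested in either region.

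**Figure D4:**
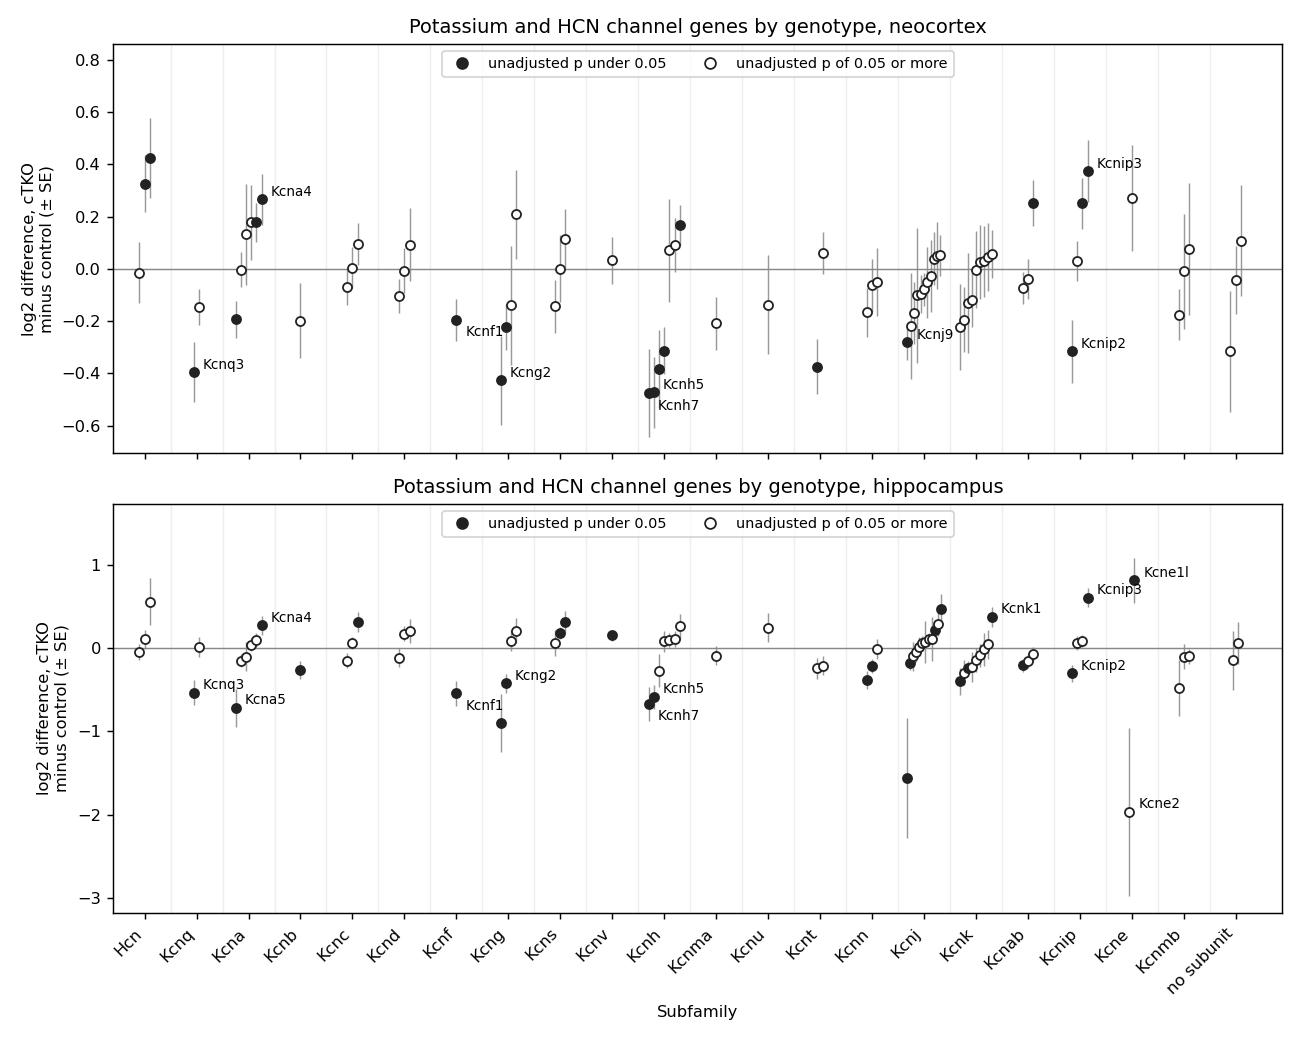
Log2 difference, cTKO minus control, of members tested (points, ± SE) by subfamily in the neocortex (upper) and hippocampus (lower, on a wider axis), with filled points for an unadjusted p under 0.05. In the hippocampus Kcnip3 lies at 0.61 and was the member called, and Kcnh5, Kcnh7, Kcnq3, Kcnf1 and Kcng2 lie below 0 in both regions.

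Kcnip3, the member called, encodes a calcium-binding protein that joins A-type channels, and it is also known as calsenilin, which binds presenilins, and as DREAM, a repressor of transcription. Its levels in control hippocampus were 81.4, 106, 98.0, 107 and 88.3 CPM, and in cTKO hippocampus 177, 144, 164, 119 and 128 CPM. Every cTKO library was above every control. It rose by 0.61 ± 0.113 log2 units (FDR 0.0356). The exact permutation test gave p = 0.00794, the smallest that splits of 5 against 5 libraries allow. Groups without overlap always give this p, so that it adds nothing to the lack of overlap. In the neocortex controls had 132, 159.8, 165, 202 and 187 CPM and cTKO libraries 228, 205, 239.5, 250.1 and 167 CPM. The groups overlapped here, at 0.37 ± 0.118 (FDR 0.272), and the difference between the regional genotype differences was 0.24 ± 0.177 (FDR 0.9999). The hippocampal call held without cTKO hippocampus 4 (FDR 0.0177) or 5 (FDR 0.0251), and was lost without any 1 of the other 8 libraries (controls 1 to 5 and cTKO 1 to 3), with an FDR between 0.0578 and 0.106 and a log2 difference between 0.53 and 0.65.

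The A-type pore subunits that Kcnip3 joins were not called. Kcnd2 differed by −0.10 ± 0.0647 in the neocortex and −0.11 ± 0.109 in the hippocampus, and Kcnd3 by −0.01 ± 0.0848 and 0.17 ± 0.0903. Kcnip2 had an unadjusted p under 0.05 in both regions in the other direction from Kcnip3. Its levels in control and cTKO neocortex averaged 114 ± 8.13 CPM and 91.3 ± 19.8 CPM, and in control and cTKO hippocampus 169 ± 13.7 CPM and 137 ± 22.4 CPM (SD, n = 5). The differences were −0.32 and −0.30 log2 units (FDR 0.370 and 0.261).

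Altogether 8 of 79 members tested in both regions had an unadjusted p under 0.05 in both with the same direction, against 3.19% of all genes tested in both, and 0 had one with opposite directions. Kcna4 and Kcnip3 were higher, and Kcnf1, Kcng2, Kcnh5, Kcnh7, Kcnip2 and Kcnq3 were lower. Both regions came from the same mice, so that the regions are not independent. Kcna4, an A-type Shaker subunit, differed by 0.27 ± 0.0984 in the neocortex and 0.28 ± 0.111 in the hippocampus.

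Kcnh5, an ether-a-go-go channel, had 37.0, 31.8, 35.4, 23.9 and 28.8 CPM in control and 25, 25.8, 16, 23.1 and 22.5 CPM in cTKO neocortex. Only the lowest control, library 4, lay within the cTKO range. The log2 difference was −0.47 ± 0.136 (FDR 0.210). In the hippocampus controls had 9.40, 7.56, 7.49, 10.9 and 8.42 CPM and cTKO libraries 6.68, 5.17, 5.03, 6.98 and 5.38 CPM. The groups did not overlap, at −0.58 ± 0.144 log2 units (FDR 0.116), so that the exact permutation test again gave its smallest p, 0.00794. In the hippocampus Kcnh5 was called by edgeR's exact test (FDR 0.0318) and by DESeq2 (FDR 0.0172).

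Kcnh7, an erg channel, had 67.8, 62.2, 68.9, 46.7 and 44.9 CPM in control and 46.3, 47.9, 25.8, 38.9 and 48.4 CPM in cTKO neocortex, and its groups overlapped (−0.48 ± 0.169, FDR 0.327). In the hippocampus controls had 19.2, 12.9, 19.7, 17.7 and 23.9 CPM and cTKO libraries 8.53, 7.97, 15.4, 15.0 and 11.9 CPM, with control library 2 inside the cTKO range (−0.67 ± 0.203, FDR 0.210). Its exons overlap those of Gca on the other strand. The other erg and ether-a-go-go genes stood closer to 0 in the hippocampus, at 0.11 ± 0.0939 for Kcnh1, 0.08 ± 0.122 for Kcnh2 and −0.27 ± 0.202 for Kcnh6.

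Since Kcnh5 and Kcnh7 had negative genotype estimates in both regions and were called lower in the hippocampus than in the neocortex, the 250 bases before their listed starts are shown, from the RefSeq annotation of GRCm38.p6, 5′ to 3′ on the minus strand, at chr12:75177333-75177582 and chr2:63184288-63184537. Capitals mark E-boxes (CANNTG), GC boxes (GGGCGG) and the core of the cAMP response element (TGACG), on either strand, and overlapping matches run together.
Kcnh5: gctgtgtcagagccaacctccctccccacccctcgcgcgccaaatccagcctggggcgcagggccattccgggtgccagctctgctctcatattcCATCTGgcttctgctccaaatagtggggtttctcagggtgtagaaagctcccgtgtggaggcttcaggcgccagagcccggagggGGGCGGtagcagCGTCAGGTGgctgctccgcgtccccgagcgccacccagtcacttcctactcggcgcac
Kcnh7: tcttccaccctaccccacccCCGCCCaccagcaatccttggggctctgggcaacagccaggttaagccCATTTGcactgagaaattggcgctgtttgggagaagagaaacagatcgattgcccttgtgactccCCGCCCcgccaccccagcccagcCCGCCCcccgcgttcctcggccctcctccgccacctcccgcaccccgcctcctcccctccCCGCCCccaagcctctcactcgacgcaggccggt

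The Kcnh5 window holds 2 E-boxes, 1 GC box and 1 core, which overlaps an E-box. The Kcnh7 window holds 1 E-box and 4 GC boxes. Over 32851 listed promoters an E-box was in 66.2%, a GC box in 32.7% and a core in 17.8%, and over 83 listed promoters of 59 members in 63.9%, 45.8% and 16.9%. The full element TGACGTCA was in 1.55% of all and in 0 of the members' windows. Such matches describe the letters of the window and say nothing of binding.

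The silent subunits Kcng2 and Kcnf1 had negative estimates in both regions too. Kcng2 in control hippocampus had 26.3, 29.8, 26.1, 32.9 and 28.0 CPM and in cTKO hippocampus 18.8, 24.2, 21, 17.0 and 25.6 CPM. These did not overlap, at −0.42 ± 0.114 log2 units (FDR 0.152), so that the exact permutation test again gave its smallest p, 0.00794. In the hippocampus Kcng2 was called by edgeR's exact test (FDR 0.0439) and by DESeq2 (FDR 0.032). In the neocortex, where it was scarce, the groups overlapped (−0.43 ± 0.171, FDR 0.403). Kcnf1 had 60.4, 73.4, 49.3, 54.7 and 61.9 CPM in control and 35.5, 33.9, 48.9, 33.3 and 54.2 CPM in cTKO hippocampus. Only cTKO library 5 reached into the range of the controls, at −0.54 ± 0.149 (FDR 0.160), and the neocortical difference was −0.19 ± 0.0798 (FDR 0.412). In the hippocampus Kcnf1 was called by edgeR's exact test (FDR 0.031), by DESeq2 (FDR 0.0241) and in the one fit of all 20 libraries (FDR 0.0371). It was also called there without cTKO hippocampus 5 (FDR 0.0439).

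**Figure D5:**
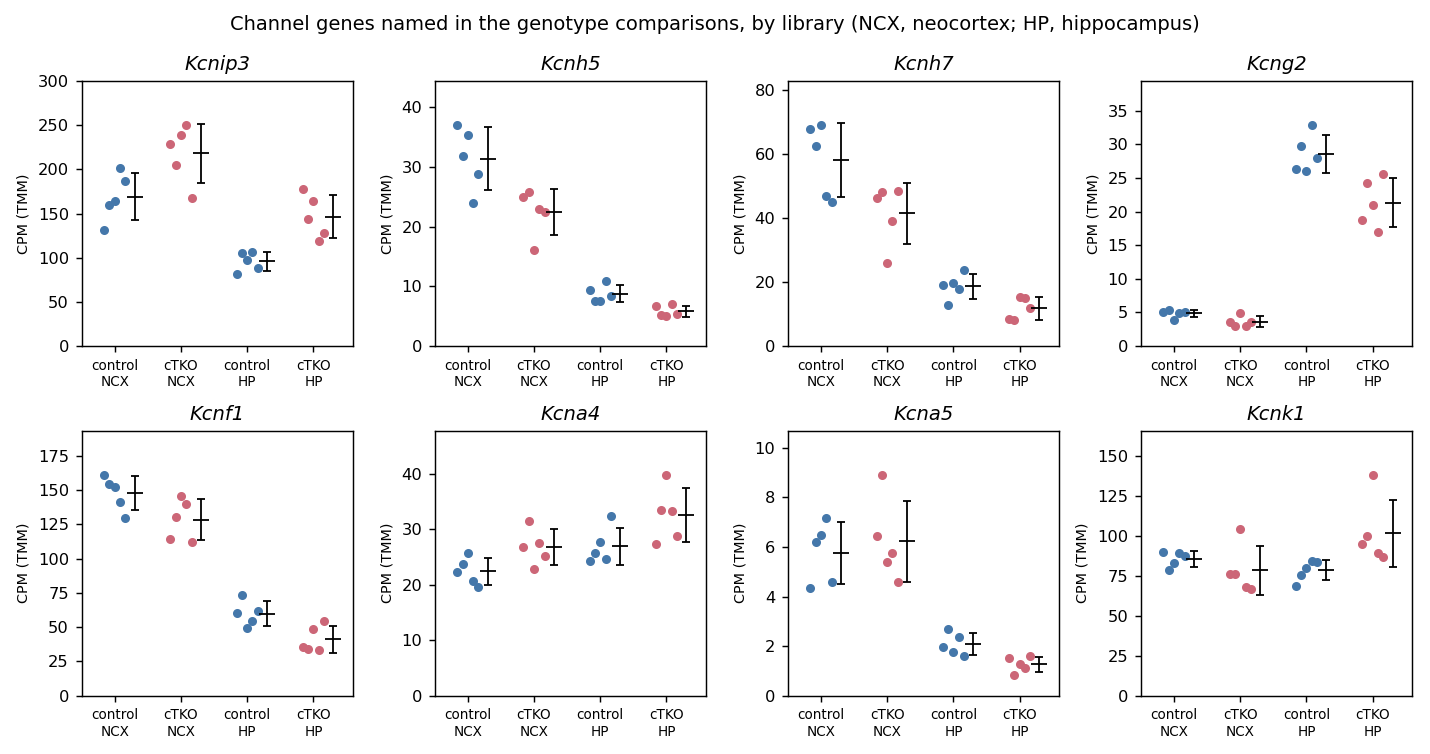
CPM (TMM-scaled, linear axis from 0) of 8 members in each library, with controls in blue, cTKO in red and the mean ± SD of 5 libraries beside them in black. Hippocampal cTKO libraries do not overlap controls for Kcnip3 and Kcnk1, which are higher, or for Kcnh5, Kcng2 and Kcna5, which are lower.

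3 more members tested did not overlap between genotypes in the hippocampus. Kcna5, a Shaker-type subunit known from heart, vessels and microglia, had 1.96, 2.71, 1.77, 2.38 and 1.62 CPM in control and 1.52, 0.832, 1.28, 1.10 and 1.61 CPM in cTKO hippocampus. The nearest libraries, control 5 and cTKO 5, had 1.62 and 1.61 CPM, and the log2 difference was −0.72 ± 0.230 (FDR 0.230). In the neocortex it was 0.13 ± 0.194, with overlap. Kcnk1, a weak tandem-pore channel, had 69.0, 75.8, 80.1, 84.2 and 83.9 CPM in control and 94.9, 99.8, 138, 89.7 and 86.7 CPM in cTKO hippocampus. All cTKO libraries were above the controls, library 3 by the most (0.37 ± 0.117, FDR 0.220). Kcnk2, a stretch-sensitive tandem-pore channel, had 49.1, 51.4, 48.0, 50.6 and 46.9 CPM in control and 44.2, 46.5, 42.9, 39.9 and 35.9 CPM in cTKO hippocampus, with every cTKO library below every control (−0.23 ± 0.0729, FDR 0.225). For both Kcnk genes, part of the exons overlaps an antisense gene model. Kcne4, too scarce there for the fit across genes, did not overlap either, at 0.859 to 1.16 CPM in control and 0.578 to 0.813 CPM in cTKO hippocampus.

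Kcne1l had 4.92, 6.83, 6.13, 5.23 and 5.81 CPM in control and 14.2, 7.58, 9.74, 15.0 and 4.49 CPM in cTKO hippocampus. 4 of 5 cTKO libraries were above all controls and library 5 was below them (0.81 ± 0.269, FDR 0.244). Without cTKO hippocampus 5 it was called, at 1.0 log2 units (FDR 0.0346). In the neocortex the member with the smallest p was Kcnj9, a subunit of G-protein-gated channels, with 175, 167, 172, 162 and 176 CPM in controls and 128, 137, 164, 131 and 139.7 CPM in cTKO libraries. Only cTKO library 3 reached the controls, at −0.28 ± 0.0665 (FDR 0.124), and the gene was called by both edgeR's exact test and DESeq2. Without cTKO neocortex 3, Kcnj9 and Kcnh3 were called by the quasi-likelihood test.

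Further members with an unadjusted p under 0.05 and no call differed less or overlapped. In the neocortex these included higher values for Kcnab1, Kcnip1, Kcna6 and Kcnh1 (0.25, 0.25, 0.18 and 0.17 log2 units). They were lower for Kcnt2, Kcnh3, Kcna2, Kcnh4 and Kcng1 (−0.37, −0.31, −0.19, −0.38 and −0.22). In the hippocampus they were higher for the inward rectifiers Kcnj2 and Kcnj4 (0.47 and 0.22), the silent subunits Kcns2, Kcns3 and Kcnv1 (0.18, 0.32 and 0.16) and Kcnc4 (0.32). They were lower for the small-conductance channels Kcnn1 and Kcnn3 (−0.22 and −0.38) and for Kcnab2, Kcnb2, Kcng3, Kcnj16 and Kcnk9 (−0.21, −0.26, −0.89, −0.18 and −0.40). The astrocyte gene Kcnj10 had 252.3, 300.0, 294, 269 and 293 CPM in control and 393, 261, 334, 468 and 269.5 CPM in cTKO hippocampus. The highest cTKO value was in library 4, where Gfap, Aqp4 and Aldh1l1 were highest as well but Slc1a3 and Gja1 were not, and the estimate was 0.29 ± 0.142 (FDR 0.444).

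Whether genotype acted differently in the regions was tested in one fit of all 20 libraries. 0 of 83 members were called (0.0564% of 14192 genes), and 8 had an unadjusted p under 0.05 (9.64%, against 3.75% of all genes). Kcnh3, an elk channel, had the smallest p, with a genotype difference of −0.31 log2 units in the neocortex and 0.10 in the hippocampus (difference 0.42 ± 0.134, FDR 0.714). Kcnh4, Kcnk1, Kcnj2, Kcng1 and Kcnj9 also differed in the direction of a higher hippocampal value, and Kcna5 and Kcnab1 in the other. Kcnk1 differed by −0.12 in the neocortex and 0.37 in the hippocampus (0.50 ± 0.168, FDR 0.810). With a block for each genotype and replicate number, Kcnk1 was called (FDR 0.0326), the 1 member called in that fit, against 0.127% of all genes. The main fit has no such block, though both regions came from the same mice.

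The auxiliary proteins, scaffolds and regulators of these channels that carry other symbols were taken as a list of 28 partner genes, in which Lrrc55 was known to differ when the list was written, so that its call is not independent evidence. In the neocortex 0 of 26 tested were called by genotype (0.188% of all genes tested), with a median log2 difference of −0.089. In the hippocampus 1 of 25 was called (0.489% of all genes tested), with a median of −0.059. This was Lrrc55, a membrane protein that shifts the opening of the large-conductance channel Kcnma1 to lower voltages. It had 10.95, 12.4, 13.2, 11.7 and 10.3 CPM in control hippocampus and 22.4, 26.0, 19.9, 22.4 and 18.04 CPM in cTKO hippocampus. The groups did not overlap, and Lrrc55 rose by 0.89 ± 0.109 log2 units (FDR 0.00274), against −0.14 ± 0.0795 in the neocortex (FDR 0.578) and a tested difference of 1.04 between them (FDR 0.00124). Kcnma1 itself differed by −0.21 ± 0.103 in the neocortex and −0.09 ± 0.110 in the hippocampus, and its other subunit Kcnmb4 by −0.18 ± 0.0981 and −0.10 ± 0.0859. By region 8 of 26 partner genes were higher in control hippocampus, against 29.8% of all genes tested, and 14 were lower, against 29.2%. Of the transmembrane partners of A-type channels, Dpp6 was higher (0.52 log2 units) and Dpp10 lower (−1.95).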

How the data were processed

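RNA of the neocortex (RNeasy Plus Universal kit) and hippocampus (RNeasy Plus Mini kit) was sequenced by the authors as single-end reads of poly-A libraries (TruSeq). Per the labels and the study's methods, reads were aligned with STAR 2.5.4a to mm10 and counted per gene with HTSeq, whose version and strand setting are not given in the sources used here. The deposited values are raw counts per gene and library, in 24421 rows, of which 0 were left out. That libraries of a group come from separate mice is taken from the study's methods.

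Genes that exceeded 1 CPM in 5 or more of the fitted libraries were scaled by TMM and tested with edgeR 4.0.16 (R 4.3.3, quasi-likelihood, Benjamini-Hochberg FDR) by genotype within a region (10 libraries), by region within a genotype (10 libraries) and for the interaction (20 libraries). Single genes were also tested with exact two-sided permutation tests over libraries. Alternatives were edgeR's exact test, DESeq2 1.42.0, other scalings, no filter, one fit of all 20 libraries, a replicate block and each library left out. The block was the replicate number, taken within each genotype for the interaction. In controls, libraries of both regions with the same number deviated together from their group means (correlations 0.129 to 0.334, each highest with its own number), and the block changed no count of calls by more than 1.5 times there.

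The genes named are the Hcn and Kcnq genes, Kcna5, Kcne1l and Kcnh5, members called by genotype or without overlap of the genotypes, the 5 highest and 5 lowest by region, the 6 highest per kb, members known from non-neuronal cells, the highest of each subfamily, and partner genes called by genotype. All others were named after their values were seen. The members and lists were chosen with earlier results of these data known. Levels per kb use all exons of a gene in GENCODE M21, joined. Some members are counted but not reported here by name.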

Additional observations from a re-analysis of the deposited data

Results flagged for a closer look

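For 36 named members, 144 groups of 5 libraries were searched for 1 library far from the other 4 (Dixon's test at 95%), and 11 had one. Chance marks about 1 in 20 groups, so that a number of this size was not set against chance here. In control hippocampus, library 3 was far above the others for Kcnj13 (25.01 CPM) and Kcne2 (22.7 CPM), and library 1 for Kcnu1 (2.81 CPM). In cTKO hippocampus, library 5 was high for Kcne2 (5.29 CPM), and library 3 was high for Kcnk1 (138 CPM) and low for Kcnab1 (113.5 CPM). In control neocortex, library 1 was apart for Kcnab1 (107 CPM), and library 3 was low for Hcn2 (134 CPM). In cTKO neocortex, library 4 was high for Kcnj10 (369 CPM), and library 3 was high for Kcnk1 (105 CPM) and low for Kcnma1 (115 CPM). Control hippocampus 3, apart for both Kcnj13 and Kcne2, and cTKO hippocampus 5, apart for Kcne2, were the libraries of their groups in which choroid plexus markers summed highest (2687 and 594 CPM), and the part of these markers was not tested.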

How the results depend on the processing

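Of 1644 values of 86 results recomputed under the alternatives, 1595 kept their direction and their side of the threshold or stayed near the reported value, 36 fell short of the threshold, 13 passed it anew and 0 turned their direction. The 86 are a chosen set of results, not all members in all comparisons. Small genotype differences, such as those of Hcn2, are not in the set, and each fit without 1 library shares the rest. A turn of direction was thus unlikely from the start. Kcnj9 by genotype in the neocortex is not in the set either, so that its new calls are not among the 13. By genotype in the neocortex, 0 members were called, but 1 with edgeR's exact test (Kcnj9), 2 with DESeq2 (Kcnj9 among them), and 0 to 2 with 1 library left out (2, Kcnh3 and Kcnj9, without cTKO neocortex 3). By genotype in the hippocampus, 1 member was called, but 5 with edgeR's exact test and 5 with DESeq2, 2 in the one fit of all 20 libraries (Kcnf1 and Kcnip3), 0 with the replicate block, and 0 to 3 with 1 library left out (3, Kcne1l, Kcnf1 and Kcnip3, without cTKO hippocampus 5). In the interaction 0 were called, but 1 with the replicate block (Kcnk1). The cause was not tested. Between genotypes, same-numbered libraries correlated at −0.137 to 0.221 and share only a number. Between regions in cTKO mice the correlations were 0.319 to 0.396 for numbers 1 to 3, and −0.0564 and −0.0713 for 4 and 5. Counts by region were 56 to 64 in controls and 52 to 59 in cTKO mice under all alternatives. With the longest transcript as the length, levels moved to 157 (Kcnab2) and 74.9 (Kcna1) CPM per kb. The exact test and the one fit of all 20 libraries were not run for the interaction. Without both cTKO libraries that held embryonic globin RNA, 52 members were called by region in cTKO mice and 0 in the interaction. Depth limits the members near the level limit, whose lowest libraries hold only a few counts.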
